A study of Mus musculus with 12 samples.

Results

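The thrombospondin family was followed in mouse heart RNA through its 5 genes, Thbs1, Thbs2, Thbs3, Thbs4 and Comp, which were chosen by gene name among 18573 named genes. All 5 were listed in each of the 4 deposited tables, and all 5 passed the filter on low values (a mean of at least 10 normalized reads) in every comparison. The hearts came from male C57Bl/6J mice of 12 weeks. The control diet supplied every essential amino acid, with branched-chain amino acids (BCAA) at about chow level, and the BCAA-free diet left the BCAA out. Each diet began 4 days before surgery and was kept until hearts were taken 1 week after it. Surgery was a sham operation or transverse aortic constriction (TAC), a narrowing of the aorta that loads the left ventricle with pressure. Crossing diet with surgery gave 4 groups with 3 libraries of poly(A) RNA in each, named below by diet and surgery (control diet sham, BCAA-free TAC and so on). No transgene or deletion is named in the labels, and all mice were of 1 strain and sex. The comparisons ask how TAC changed these genes on each diet, how the diet changed them after either surgery, and whether TAC acted on them differently under the 2 diets.

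Thrombospondins are secreted, calcium-binding glycoproteins of the extracellular matrix that regulate contact between cells and matrix more than they bear load, and are therefore called matricellular. Thbs1 and Thbs2 form trimers and carry type 1 repeats. Through these they bind CD36 and inhibit blood vessel growth, and Thbs1 also binds latent TGF-beta, a growth factor held inactive in the matrix, and helps to activate it. Thbs3, Thbs4 and Comp (cartilage oligomeric matrix protein) form pentamers and lack type 1 repeats. Comp binds fibrillar collagens and matrilins in cartilage and tendon. Thbs4 is known as a gene induced in stressed heart muscle, where its protein also acts inside the endoplasmic reticulum with the stress sensor ATF6, and Thbs3 is known to affect integrins at the heart muscle cell surface.

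The genes lie on separate chromosomes of the GRCm38 build, and all are protein coding. Thbs1 is on chromosome 2 (118111876 to 118127133, plus strand), Thbs2 on chromosome 17 (14665500 to 14694235, minus strand) and Thbs3 on chromosome 3 (89215180 to 89226837, plus strand). Thbs4 is on chromosome 13 (92751590 to 92794818, minus strand) and Comp on chromosome 8 (70373558 to 70382066, plus strand). Thbs3 shares 318 exonic bases with Mtx1 on the other strand, and Thbs1 shares 208 with the long noncoding RNA Gm29233. The strand setting of the counting is not given in the sources used here, so reads from these overlaps could have been assigned to either gene. The RefSeq promoter table (GRCm38.p6) had entries for 3 of the 5 members. The 250 bases before the RefSeq start of each are shown because Thbs4 changed most between these hearts, Thbs3 changed less in the same order of groups, and Thbs2 followed another order. Capitals mark matches to 5 motifs searched on both strands. The M-CAT element, which TEAD factors bind, was searched as CATTCC. For SMAD proteins, the mediators of TGF-beta signalling, the box searched was GTCTG. The AP-1 element was searched as TGANTCA. The GC box, bound by Sp1, was searched as GGGCGG. The TATA box was searched as TATAAA.
Thbs4, chr13:92794819-92795068, minus strand: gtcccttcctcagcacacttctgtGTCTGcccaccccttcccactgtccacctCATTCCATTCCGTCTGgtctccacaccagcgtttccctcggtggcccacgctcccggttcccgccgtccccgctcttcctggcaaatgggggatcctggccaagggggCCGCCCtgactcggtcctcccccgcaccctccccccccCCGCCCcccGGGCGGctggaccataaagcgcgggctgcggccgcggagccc
Thbs3, chr3:89214930-89215179, plus strand: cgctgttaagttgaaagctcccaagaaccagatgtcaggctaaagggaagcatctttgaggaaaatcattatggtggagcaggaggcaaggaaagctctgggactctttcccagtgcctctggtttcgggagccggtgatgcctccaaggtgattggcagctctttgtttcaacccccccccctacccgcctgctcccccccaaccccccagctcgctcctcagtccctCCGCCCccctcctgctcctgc
Thbs2, chr17:14694263-14694512, minus strand: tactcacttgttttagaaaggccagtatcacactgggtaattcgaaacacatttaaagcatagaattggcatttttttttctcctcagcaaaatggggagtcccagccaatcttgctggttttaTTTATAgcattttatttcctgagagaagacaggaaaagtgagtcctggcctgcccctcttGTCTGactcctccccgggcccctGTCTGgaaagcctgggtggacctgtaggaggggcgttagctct

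The Thbs4 promoter held 2 M-CAT matches that share 1 base, at 197 to 192 and 192 to 187 bases before the start. One of its 2 SMAD box matches follows them directly, at 186 to 182, and the other is at 226 to 222. It also held 3 GC boxes, the nearest at 42 to 37. The Thbs3 promoter held 1 GC box and none of the other motifs. Its 250 bases also overlapped 1 other annotated gene, with 0 exonic bases of that gene. Those of Thbs4 and Thbs2 overlapped 0 other genes. The Thbs2 promoter held 2 SMAD boxes, at 66 to 62 and 43 to 39, and 1 TATA box match on the opposite strand at 126 to 121. AP-1 was matched in 0 of the 3. Of 32536 promoters of this length in the table, 12.6% held M-CAT, 42.2% the SMAD box, 6.73% AP-1, 33% the GC box and 12.3% the TATA box. These are matches of letters, not measured binding sites. GC content was 70.8% for Thbs4, 58.8% for Thbs3 and 46.8% for Thbs2, against a median of 52.4% over all promoters.

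Libraries held 74206246 to 110452636 reads. The hearts carried the cardiomyocyte marker set in every library (9 of 9 measured, summing to 63237 to 84801 CPM, reads scaled to a common library total). Reads from mitochondrial genes made up 17.9 to 19.9% in control diet TAC and 21.9 to 27.1% in the other libraries. The library most unlike its group mates was control diet TAC 3: the SD of its genes from the group mean was 0.337 (log2), and 0.218 to 0.275 in the others. Levels below are normalized reads, scaled by 1 size factor per library set over all 12. Their ratios can differ slightly from the fold changes, which come from limma on log2(value + 1) within each deposited table, with adjusted p-values over all genes tested. In whole-heart RNA, a change in the number of cells that make a transcript and a change in RNA per cell cannot be told apart. Nothing in the labels states that the replicates were separate animals, so the p-values measure the spread between these samples only.

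On the control diet, TAC raised 4 of the 5 thrombospondin genes. Thbs4 rose 12.5-fold in mean level, Thbs1 5.20-fold, Comp 5.05-fold and Thbs3 2.21-fold, and these were adjusted p under 0.05 calls by limma, while Thbs2 was not called. Over all genes tested, 9.17% were called higher in this comparison and 5.64% lower, 14.8% in all. The median log2 change was 2.32 over the 5 members and -0.02 over all genes.

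Thbs4 was at 683, 747 and 684 normalized reads in control diet sham 1, 2 and 3 and at 9523, 10043 and 6935 in control diet TAC 1, 2 and 3. The TAC libraries were all far above the sham libraries, and control diet TAC 3 was the lowest of them. Of all genes measured, 18.8% had every TAC library above every sham library on this diet. The log2 change of Thbs4 was 3.62 ± 0.138 (SE, n = 3 and 3, limma adjusted p = 1.2e-05). An exact permutation test of the same 3 against 3 levels, two-sided, gave p = 0.10, the smallest this design allows.

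Thbs1, the activator of latent TGF-beta, was at 1386, 1792 and 1000 in control diet sham and at 5346, 10161 and 6199 in control diet TAC. The groups did not overlap, the TAC libraries being higher, as they were for 18.8% of all genes measured. The TAC libraries of Thbs1 were spread over a wider range than those of Thbs4. The log2 change was 2.35 ± 0.257 (limma adjusted p = 0.00089). Comp was at 511, 756 and 497 in sham and at 2957, 3783 and 2166 in TAC hearts, again without overlap, a log2 change of 2.32 ± 0.216 (limma adjusted p = 0.000532). Thbs3 was at 569, 538 and 532 in sham and at 1283, 1433 and 900 in TAC hearts. It had the smallest of the called changes, 1.10 ± 0.165 (limma adjusted p = 0.00363), with no overlap. These 4 calls held in each of the 14 alternative analyses, including each library left out in turn. Thbs2, the other trimer, was at 1433, 2380 and 1781 in sham and at 2874, 4021 and 1699 in TAC hearts. The groups overlapped because control diet TAC 3 was within the sham range, and the log2 change of 0.56 ± 0.289 did not pass (limma adjusted p = 0.239).

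**Figure D1:**
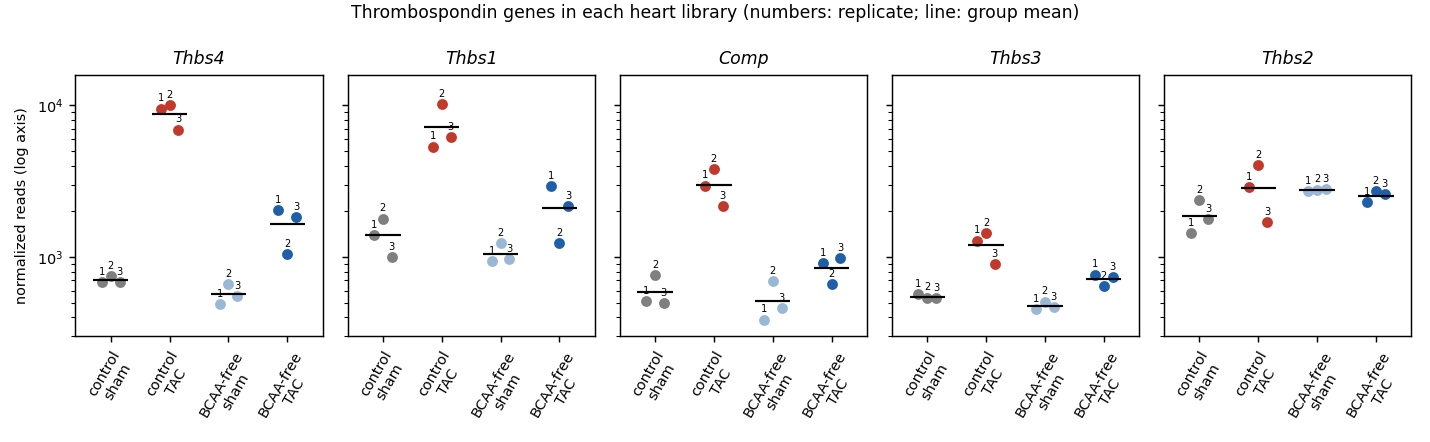
Normalized reads (log axis) of the 5 thrombospondin genes in each of the 12 heart libraries, by group; numbers give the replicate and lines the group mean of 3 libraries. Control diet TAC libraries stand above all others for Thbs4 (6935 to 10043), Thbs1, Comp and Thbs3, and not for Thbs2.

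On the BCAA-free diet, TAC raised 2 of the 5 members, Thbs4 and Thbs3, where 3.31% of all genes tested were called higher, 4.41% lower and 7.72% in either direction. The mean level of Thbs4 was 2.89-fold higher, and that of Thbs3 went from 475 ± 27.9 to 714 ± 63.5 (SD, n = 3). Thbs1 averaged 1049 ± 166 in sham and 2103 ± 851 in TAC hearts and Comp 511 ± 159 and 851 ± 170, and neither passed the test. The median log2 change was 0.75 over the members and 0.01 over all genes.

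Thbs4 was at 486, 661 and 554 in BCAA-free sham 1, 2 and 3 and at 2044, 1044 and 1827 in BCAA-free TAC 1, 2 and 3. Every TAC library was above every sham library, as for 14% of all genes measured, with BCAA-free TAC 2 the lowest. The log2 change was 1.48 ± 0.285 (limma adjusted p = 0.0434). This call held in 8 of 14 alternatives and was lost without BCAA-free TAC 1 (0.079), TAC 3 (0.0941), sham 1 (0.142), sham 2 (0.109) or sham 3 (0.13), the remaining loss being with the replicate block. Thbs3 was at 452, 506 and 468 in sham and at 765, 643 and 735 in TAC hearts, without overlap. Its change of 0.58 ± 0.101 (limma adjusted p = 0.00559) was lost only with size factors set over all 12 libraries (0.0603).

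Thbs1 was at 938, 1240 and 970 in BCAA-free sham and at 2925, 1226 and 2158 in BCAA-free TAC. BCAA-free TAC 2 was within the sham range, and the change of 0.92 ± 0.365 did not pass (limma adjusted p = 0.234). Without that library it was 1.26 (limma adjusted p = 0.00392). DESeq2 on all libraries called Thbs1 higher (adjusted p = 0.0453). Comp was at 385, 689 and 458 in sham and at 908, 660 and 984 in TAC hearts. BCAA-free sham 2 was above BCAA-free TAC 2, and the change was 0.75 ± 0.245 (limma adjusted p = 0.124). Without BCAA-free sham 2 it was 0.99 (limma adjusted p = 0.00917). Thbs2 was at 2725, 2778 and 2820 in sham and at 2303, 2723 and 2585 in TAC hearts, slightly lower in each TAC library. On this diet 14.1% of all genes measured were lower in every TAC library. The Thbs2 difference of -0.14 ± 0.0694 did not pass (limma adjusted p = 0.261).

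Of the marker sets summed, 3 were higher in every BCAA-free TAC than in every BCAA-free sham library. The structured RNAs Rn7sk, Rmrp and Rpph1 (3 of 3 measured) summed to 7.79 to 76.1 CPM after TAC on the BCAA-free diet and 3.02 to 3.89 after sham surgery, and on the control diet to 3.83 to 19.3 and 2.06 to 115.5. Atrial markers (4 of 5 measured in all libraries, 0 of them at 0) summed to 260 to 303 after TAC and 86.3 to 201 after sham surgery on the BCAA-free diet, and to 194 to 487 and 56.1 to 304 on the control diet. Skeletal muscle markers (3 of 7 measured, 0 at 0) summed to 2023 to 2288 and 1674 to 1859 on the BCAA-free diet, and to 1590 to 1996 and 1721 to 2021 on the control diet. The 3 measured were Ckm, Tnnt3 and Tnni2, of which Ckm alone was called higher with TAC on the BCAA-free diet. Myh1, Myh2, Myh4 and Myod1 were not measured in all libraries, so this sum does not show that skeletal muscle was present. The part of these marker sets in the Thbs4 and Thbs3 changes was not tested.

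**Figure D2:**
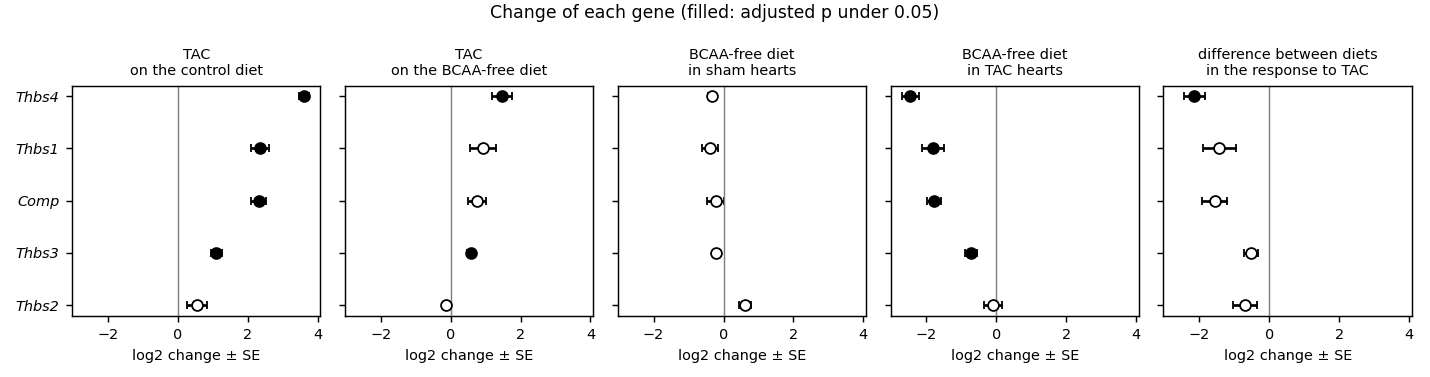
Log2 change ± SE of each thrombospondin gene in the 5 comparisons; filled points have a limma adjusted p under 0.05. Thbs4 is filled in every panel except the diet comparison in sham hearts, and Thbs2 in none.

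Between the diets, 4 of the 5 members were lower in BCAA-free TAC than in control diet TAC hearts, where 10.5% of all genes tested were called lower, 6.23% higher and 16.8% in either direction. Thbs4 was 5.39-fold lower in mean level, Comp 3.49-fold, Thbs1 3.44-fold and Thbs3 1.69-fold. For each of these 4 genes the 3 BCAA-free TAC libraries were below the 3 control diet TAC libraries, as they were for 19.2% of all genes measured. The median log2 difference was -1.78 over the members and 0.02 over all genes. This comparison and that of TAC on the control diet share the control diet TAC libraries, so their values are not independent.

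The largest difference was that of Thbs4, at -2.46 ± 0.239 (limma adjusted p = 0.000496). Comp differed by -1.78 ± 0.205 (limma adjusted p = 0.000772), and both calls held in all 14 alternatives. Thbs1 differed by -1.81 ± 0.321 (limma adjusted p = 0.00676), a call lost without control diet TAC 3 (0.0969) and with the replicate block. Thbs3 differed by -0.73 ± 0.167 (limma adjusted p = 0.017), lost without control diet TAC 1 (0.0718), BCAA-free TAC 2 (0.0866) or BCAA-free TAC 3 (0.0593). Thbs2 differed by -0.09 ± 0.254 (limma adjusted p = 0.845), with the 3 BCAA-free TAC libraries inside the control diet TAC range. Its direction rested on single libraries: the difference was 0.20 without control diet TAC 2 and -0.42 without control diet TAC 3 (limma adjusted p = 0.0471).

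In sham hearts 0 of the 5 members were called between the diets by limma, where 3.54% of all genes tested were called, 1.27% higher and 2.27% lower. Unadjusted p-values were below 0.05 for 2 members, Thbs2 and Thbs4. The edgeR quasi-likelihood test called 0 members and DESeq2 called 1, Thbs2. Thbs2 averaged 2774 ± 47.2 (SD, n = 3) in BCAA-free sham against 1865 ± 479 in control diet sham. All BCAA-free sham libraries were above the control ones for this gene, as for 13.6% of all genes measured. The log2 difference of Thbs2 was 0.60 ± 0.170 (limma adjusted p = 0.111). DESeq2 gave an adjusted p of 0.00231, and limma without control diet sham 2, the highest control library, gave 0.79 with an adjusted p of 0.00154. The authors' deposited table gives Thbs2 a log2 difference of 0.57 with an adjusted p of 0.0023. The other members were on average lower on the BCAA-free diet, by log2 values of -0.38 ± 0.225 for Thbs1, -0.33 ± 0.118 for Thbs4, -0.22 ± 0.248 for Comp and -0.20 ± 0.0953 for Thbs3, with limma adjusted p-values from 0.155 to 0.680.

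A model of all 12 libraries asked whether TAC acted differently on the 2 diets. Thbs4 was the 1 member called, where 0.503% of all genes tested were called lower, 0.171% higher and 0.675% in either direction. Its log2 response to TAC was smaller by -2.14 ± 0.300 on the BCAA-free diet (limma adjusted p = 0.0109). That call held in all 20 alternatives, with adjusted p-values from 2.5e-09 to 0.0421. Comp differed by -1.56 ± 0.350 (limma adjusted p = 0.0642), Thbs1 by -1.43 ± 0.473 (0.188), Thbs2 by -0.69 ± 0.355 (0.401) and Thbs3 by -0.53 ± 0.199 (0.226). At an unadjusted p under 0.05 there were 4 members. Control diet TAC 3 bore on these values. Without it Thbs3 (-0.72, limma adjusted p = 0.00782), Comp (-1.77, 0.0197) and Thbs2 (-1.02, 0.0361) were called as well. DESeq2 called Comp with all libraries (adjusted p = 0.000489).

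Ordered by mean level, Thbs1, Thbs3, Thbs4 and Comp followed 1 order: BCAA-free sham, control diet sham, BCAA-free TAC and, highest, control diet TAC. For Thbs3 and Thbs4 each group was separate from its neighbour in that order. Of all genes measured, 12.7% were lower in every BCAA-free sham than in every control diet sham library. For BCAA-free TAC below control diet TAC the share was 19.2%. Shares for control diet sham below BCAA-free TAC and for all groups in this order were not computed. For Thbs1 and Comp only control diet TAC was separate, and the other neighbours overlapped. Thbs2 ran from control diet sham (1865 ± 479) through BCAA-free TAC (2537 ± 214) and BCAA-free sham (2774 ± 47.2) to control diet TAC (2865 ± 1161). Its BCAA-free groups were separate from each other, and both other pairs of neighbours overlapped. Within groups, members often but not always shared the extreme library. Control diet TAC 3 was the lowest of its group for Thbs2, Thbs3, Thbs4 and Comp, and control diet TAC 1 for Thbs1. BCAA-free TAC 2 was the lowest of its group for Thbs1, Thbs3, Thbs4 and Comp, and the highest for Thbs2. BCAA-free sham 2 was the highest of its group for the same 4 genes, and BCAA-free sham 3 for Thbs2. Control diet sham 2 was the highest of its group for all members except Thbs3, which was highest in control diet sham 1.

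Divided by exon length, the family's make-up differed between the groups. In control diet sham hearts the 5 genes summed to 1021 ± 180 normalized reads per kb (SD, n = 3), of which Thbs2 took 25.9 ± 3.41%, Thbs1 22.2 ± 3.52%, Thbs4 21.3 ± 2.42%, Comp 19.2 ± 1.29% and Thbs3 11.3 ± 1.95%. In control diet TAC hearts they summed to 5537 ± 1294, of which Thbs4 took 48.9 ± 4.36% (44.4 to 53.1%) and Thbs2 7.18 ± 1.38%. BCAA-free sham hearts had about the control sham total, 1012 ± 115, but Thbs2 took 39.5 ± 4.08% there. In BCAA-free TAC hearts the total was 1641 ± 334, with 29.8 ± 4.10% for Thbs4 and 23.0 ± 6.95% for Thbs2. Shares of Comp stayed between 16.8 and 19.2% on average over the 4 groups. Per kb, the log2 ratio of Thbs4 to Thbs1 was -0.06 ± 0.363 in sham and 1.21 ± 0.448 in TAC hearts on the control diet, and -0.00 ± 0.0723 and 0.55 ± 0.162 on the BCAA-free diet.

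**Figure D3:**
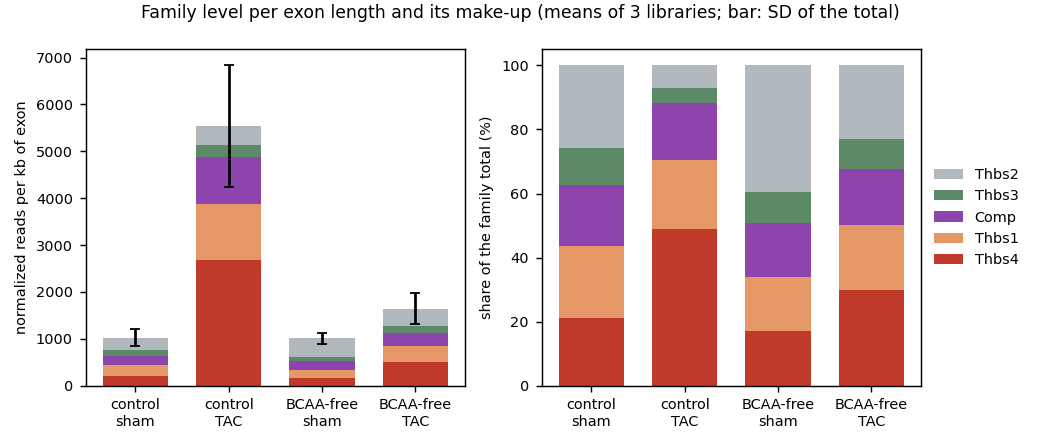
Left, normalized reads per kb of exon of the thrombospondin genes, stacked, as means of 3 libraries with the SD of the total; right, each gene's mean share of the family total in percent. Thbs4 takes 48.9% in control diet TAC hearts and Thbs2 39.5% in BCAA-free sham hearts.

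Of 14 receptor genes, 3 rose and 1 fell with TAC on the control diet, with a median log2 change of 0.13. In that comparison 9.17% of all genes were called higher and 5.64% lower, and with TAC on the BCAA-free diet 3.31% and 4.41%. Between the diets in TAC hearts 6.23% of all genes were called higher and 10.5% lower, and in sham hearts 1.27% and 2.27%. These shares apply to each of the gene lists that follow. Those that rose were Itgb3 (1.13 ± 0.168), the beta chain that pairs with the alpha v chain, Sdc1 (0.94 ± 0.149), a heparan sulfate proteoglycan, and Itgav (0.42 ± 0.0914), the alpha v chain itself. The Itgav call was lost in 5 of 14 alternatives, and without control diet TAC 3 there were 5 receptor genes called higher. On the BCAA-free diet 0 rose and 1 fell with TAC: Calr, a chaperone that is also a receptor partner on the cell surface, at -0.23 ± 0.0621, a call lost in 7 of 14 alternatives. Without BCAA-free TAC 2, 1 receptor gene was called higher. In TAC hearts 5 receptors were lower and 1 was higher on the BCAA-free diet, the lower ones including Sdc1 (-0.93 ± 0.163), Itgav (-0.56, limma adjusted p = 0.00565) and the laminin receptor chain Itga6 (-0.79 ± 0.148), and these 3 calls held in all 14 alternatives. Itga6 was also lower on that diet in sham hearts, by -0.79 ± 0.112 (limma adjusted p = 0.013), the 1 receptor called there. That call was lost without control diet sham 1 or 3, with limma adjusted p-values up to 0.0667. Leaving out 1 library moved the count of lower receptors in TAC hearts to between 3 and 9, the highest without control diet TAC 3 and the lowest without control diet TAC 1, control diet TAC 2, BCAA-free TAC 2 or BCAA-free TAC 3.

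Cd36, the fatty acid transporter to which type 1 repeats bind, was at 145201 ± 9611 normalized reads in sham and 112265 ± 10124 in TAC hearts on the control diet, and at 166827 ± 5787 and 148063 ± 4617 on the BCAA-free diet. Of these differences only that between the diets in TAC hearts was called (0.41 ± 0.118, limma adjusted p = 0.0428), and it was lost in 6 of 14 alternatives. Cd47, the receptor for the C-terminal part of Thbs1, was at 5472 ± 55.5, 6269 ± 787, 5763 ± 85.5 and 5644 ± 244 in the same order. It was called in 0 comparisons, and in 0 of the alternatives of any. Its limma adjusted p-values ran from 0.321 to 0.747.

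Among genes of latent TGF-beta and its targets, 8 of 15 rose and 1 fell with TAC on the control diet (median log2 change 0.51), led by the latent TGF-beta binding protein Ltbp2 (3.45 ± 0.256), the ligand Tgfb2 (1.24 ± 0.117) and the target Ctgf (1.81 ± 0.265). Ctgf was not called without control diet TAC 3 (limma adjusted p = 0.0602). On the BCAA-free diet 2 of 15 rose, Tgfb3 (0.52 ± 0.0889) and Ltbp2 (1.60 ± 0.286, a call lost in 6 of 14 alternatives), and 6 rose without BCAA-free TAC 2. Each other library left out in turn gave 1. In TAC hearts 10 of 15 were lower on the BCAA-free diet, among them the ligand Tgfb1 (-0.86 ± 0.116) and Ltbp2 (-2.29 ± 0.319). That count was 5 without control diet TAC 2 and 6 without control diet TAC 1, BCAA-free TAC 2 or BCAA-free TAC 3. In sham hearts 3 were lower on the BCAA-free diet, Tgfb1 (-0.52 ± 0.0763), Ltbp4 (-0.41 ± 0.0686) and Tgfb3 (-0.37 ± 0.0769), against 0 without BCAA-free sham 1 and 1 without BCAA-free sham 3.

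Matrix partners, the collagens and other proteins that thrombospondins bind, rose with TAC in 15 of 20 measured genes on the control diet, with a median log2 change of 1.49. Col12a1 rose by 3.22 ± 0.255, the cartilage collagen chain Col9a2 by 3.74 ± 0.351 and Col1a2, a chain of the main fibrillar collagen, by 2.22 ± 0.216. The count was 8 without control diet TAC 1. On the BCAA-free diet 4 of 19 rose, led by Col12a1 (1.37 ± 0.185), the proteoglycan Acan (1.96 ± 0.293) and the protease Mmp2 (0.63 ± 0.0933), and 10 rose without BCAA-free TAC 2. In TAC hearts 13 of 20 were lower on the BCAA-free diet, among them Col9a2 (-3.43 ± 0.363) and Col3a1 (-2.37 ± 0.255), and 1 was higher. In sham hearts 6 of 18 were lower on that diet, led by Col1a1 (-1.10 ± 0.0829), against 3 without BCAA-free sham 1, 9 without control diet sham 2, 10 by DESeq2 and 1 with size factors set over all 12 libraries. With the last setting Col1a1 itself was not called (limma adjusted p = 0.127).

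Other matricellular genes rose with TAC in 8 of 15 on each diet. On the control diet these included Tnc (3.84 ± 0.191), the bone and inflammation protein Spp1 (3.01 ± 0.175) and Postn (3.52 ± 0.242), each called in all 14 alternatives. On the BCAA-free diet they were led by Spp1 (2.11 ± 0.220) and Wisp2 (0.90 ± 0.124), and the count fell to between 3 and 5 without each library other than BCAA-free TAC 2. In TAC hearts 9 of 15 were lower on the BCAA-free diet, Postn by -2.74 ± 0.290. In sham hearts 5 were lower on that diet, led by Tnc (-1.16 ± 0.178), and leaving out 1 library gave 0 to 4, the lowest without BCAA-free sham 1. Of the other genes with type 1 repeats, mostly secreted proteases of the Adamts group, 9 of 41 rose and 1 fell with TAC on the control diet and 5 of 38 rose and 1 fell on the BCAA-free diet. The first count was 14 without control diet TAC 3. Wisp1 (2.91 ± 0.288) and Adamts8 (2.57 ± 0.298) were among those that rose on the control diet, and Adamts2 (0.77 ± 0.0936) on the BCAA-free diet. In TAC hearts 12 of 41 were lower and 2 higher on the BCAA-free diet. In sham hearts 3 of 39 were lower on it, among them Adamtsl2 (-0.90 ± 0.147), against 8 without control diet sham 2 and 0 without control diet sham 3 or BCAA-free sham 3. Ctgf, Cyr61, Nov, Wisp1 and Wisp2 stand in both of these lists, and Ctgf also in the TGF-beta list. When the TAC responses on the 2 diets were set against each other, 0.503% of all genes tested were called lower and 0.171% higher. Of 19 matrix partners 2 were called, Col9a2 (-2.69 ± 0.494) and Col12a1 (-1.85 ± 0.354). That count ran from 0 to 10 with 1 library left out, the highest without control diet TAC 3. Wisp1 was the 1 gene called among other matricellular genes and among those with type 1 repeats. In the receptor, TGF-beta and ATF6 lists 0 were called, and 5 in each without control diet TAC 3.

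The list for the ATF6 branch of the endoplasmic reticulum holds chaperones and sensors, and Thbs4 is known to act with ATF6 itself. Whether the other listed genes are partners of Thbs4 was not tested. With TAC on the control diet 2 of 16 rose, the protein disulfide isomerases Pdia3 (0.42 ± 0.107) and Pdia4 (0.35 ± 0.0951), and 0 were called without control diet sham 1, 2 or 3 or control diet TAC 1. On the BCAA-free diet 5 of 16 fell with TAC, where 4.41% of all genes did, led by the chaperones Hspa5 (-0.37 ± 0.0601) and Hsp90b1 (-0.30 ± 0.0582). That count was 0 with size factors set over all 12 libraries, 1 without BCAA-free sham 1 or 3, and 3 without any 1 of the BCAA-free TAC libraries. In TAC hearts 5 were lower on the BCAA-free diet, among them Pdia4 (-0.59 ± 0.0891), and 1 was higher, Herpud1 (0.61 ± 0.117). The first of these counts was 8 with size factors set over all 12 libraries, and 2 or 3 without control diet TAC 1 or any 1 of the BCAA-free TAC libraries.

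**Figure D4:**
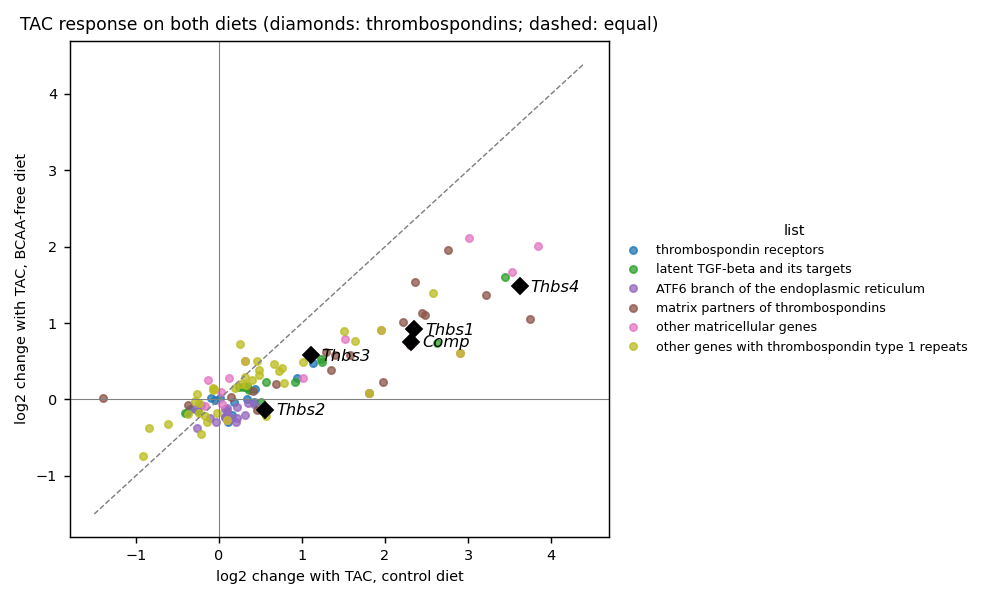
Log2 change with TAC on the control diet (x) and on the BCAA-free diet (y) for the thrombospondin genes (diamonds) and genes of the 6 related lists (points); the dashed line marks equal change. Thbs4 lies at 3.62 and 1.48, below the line, as do Thbs1, Comp, Thbs3 and Thbs2.

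Control diet TAC was the group in which Thbs1, Thbs3, Thbs4 and Comp were high, while Thbs2 overlapped other groups there. Marker sums of 4 cell types, in CPM, were higher in each of its libraries than in any library of the other groups. CPM divides by all reads, mitochondrial ones included, while the member levels use size factors. Control diet TAC 2, for example, had a size factor of 0.986 at 76461442 reads, and control diet sham 1 had 1.03 at 96370433. CPM in control diet TAC thus stands higher against the other groups than normalized reads would, and sums by size factor were not made. CPM means of other lists were also highest in control diet TAC, but with libraries that overlapped other groups. These were smooth muscle and mural (1161 ± 241 CPM, SD, n = 3), endothelial (824 ± 182) and atrial markers (299 ± 163). By limma, endothelial markers went the other way with TAC on the control diet, at a median log2 change of -0.16 with 0 of 7 called. The median was 0.28 for smooth muscle and mural markers, with 2 of 8 called higher, and 0.44 for atrial markers, with 0 called. Fibroblast markers (10 of 10 measured) summed to 2028 to 2284 CPM in control diet TAC. In control diet sham they summed to 1709 to 1895, and on the BCAA-free diet to 1565 to 1670 after sham surgery and 1665 to 1732 after TAC. Their members did not all change 1 way: 6 were called higher and 2 lower with TAC on the control diet, and 5 lower and 2 higher on the BCAA-free diet in TAC hearts. Macrophage markers (8 of 8) summed to 505 to 582 in control diet TAC and to 245 to 318, 223 to 261 and 260 to 333 in the other groups in that order. Tendon and cartilage markers (9 of 12) summed to 33.4 to 78.2 in control diet TAC, lowest in control diet TAC 3, and to 14.97 to 19.2, 12.3 to 17.2 and 16.6 to 18.2 in the others. Platelet and megakaryocyte markers (7 of 11) summed to 20.2 to 25.2 in control diet TAC and to 17.0 to 17.3, 13.1 to 14.9 and 14.7 to 18.0 in the others. Of the measured markers in these lists 0 were at 0 reads in any library. For all 4 lists each control diet TAC library was above every library of the other groups in CPM. Cardiomyocyte markers (9 of 9) ran the other way between the diets in TAC hearts, at 63237 to 72445 in control diet TAC and 81215 to 84801 in BCAA-free TAC, with 6 of 9 called higher on the BCAA-free diet. In sham hearts they summed to 71411 to 76229 on the control diet and 76901 to 81810 on the BCAA-free diet. The part of these cell types in the thrombospondin levels was not tested.

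Genes whose profile over the 12 libraries was most like each member were ranked by the root mean square difference of log2 levels after each gene's mean was subtracted, among 12893 genes with a mean of at least 50. The libraries share depth and scaling, so this is a description. Nearest to Thbs4 were Lox (0.140), which crosslinks collagen, Ltbp2 (0.173), Col12a1 (0.238), the matrix protein Cilp (0.279) and Postn (0.280). Lox averaged 573 normalized reads in sham and 7400 in TAC hearts on the control diet, and 503 and 1439 on the BCAA-free diet. Thbs4 averaged 705, 8834, 567 and 1638 in the same order. Nearest to Thbs3 was Itgb3 (0.0649), the receptor chain named above, followed by Ccdc136 (0.0956), the matrix protein Fbln2 (0.106), the noncoding RNA Meg3 (0.108) and Ace (0.110), the angiotensin converting enzyme.

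Thbs1 and Comp had profiles close to each other (0.266), closer to Thbs1 than any of the ranked genes. Col8a1 (0.281) followed for Thbs1, a collagen of vessel walls, with Nkd2 (0.312), Frzb (0.312), Panx1 (0.327) and Gdf6 (0.331). For Comp the nearest were the Wnt inhibitors Frzb (0.224) and Nkd2 (0.234), then Loxl3 (0.247), Col16a1 (0.247) and Tmem119 (0.248). Other pairs of members stood further apart by this measure: Thbs4 and Thbs2 differed by 1.51, and Thbs4 and Thbs3 by 1.07. The measure is not scaled to each gene's spread, so it also grows where changes differ in size alone. Thbs4 and Thbs3 followed the same order of group means, with profile SDs of 1.64 and 0.549. Around Thbs2, whose own profile had an SD of 0.403 against 1.64 for Thbs4, the nearest were Slc4a8 (0.197), Slc6a6 (0.207), Zfp862-ps (0.230), Stk35 (0.231) and Slc43a3 (0.234).

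**Figure D5:**
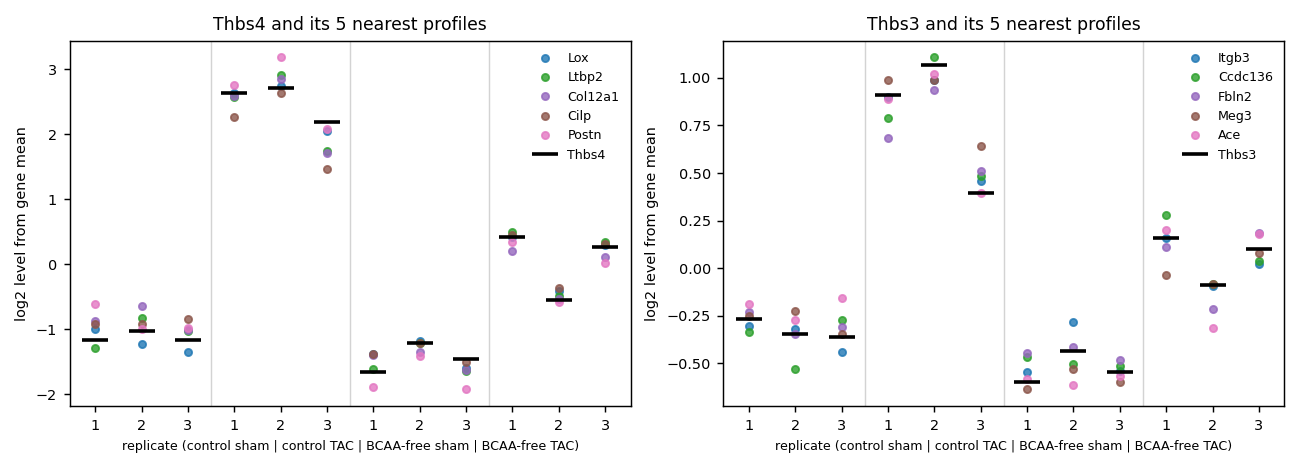
Log2 level relative to each gene's own mean in the 12 libraries for Thbs4 (left, black dashes) and Thbs3 (right, black dashes) with the 5 genes of nearest profile (points). Lox follows Thbs4 with a root mean square difference of 0.140, and Itgb3 follows Thbs3 with 0.0649.

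Most genes next to the members were not called in any comparison. Around Thbs4, Serinc5 (0.02 ± 0.125 with TAC on the control diet) and Mtx3 (-0.21 ± 0.123) were called in 0 comparisons. The same was true of Upf1 and Crtc1, which flank Comp, of Rasgrp1 beside Thbs1, and of Muc1 beside Thbs3. Mtx1, whose exons overlap Thbs3, was also called in 0 comparisons and averaged between 1374 and 1496 normalized reads in the 4 groups. Smoc2, the neighbour of Thbs2, rose with TAC on the BCAA-free diet (0.28 ± 0.0732) and was lower on that diet in sham hearts (-0.42 ± 0.0732). Wdr27, on its other side, was tested in 2 comparisons and called in 0, and Fsip1, beside Thbs1, was not analysed here.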

How the data were processed

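Mouse heart RNA was measured in 12 libraries in 4 groups of 3, taken with replicate numbers from the labels. Tools listed in the submitters' processing notes are Trimmomatic 0.36, STAR 2.5.2b, Subread 1.5.2 and DESeq2, with the builds GRCm38 and mm10. Their roles and the strand setting: not given in the sources used here. Per the file headers, the authors deposited 4 tables, each of 1 pair of groups, with a signal per library (normalized counts), a log2 fold change and p-values. The deposited signal is whole reads divided by a size factor per library and table: 100% of values were whole within 0.0001 read, and recovered reads agreed in all 212169 values that stand in a pair of tables. Rows without a gene name (31) are outside the 18573 named genes. Each table holds genes with at least 61 reads over its 6 libraries.

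The design foresaw limma for such values: limma-trend (limma 3.58.1, R 4.3.3), robust, of log2(value + 1), for genes averaging 10 or more, Benjamini-Hochberg adjusted p under 0.05 over all genes, each pair of groups alone. Fold changes on this scale understate low genes. The difference between diets used all 12 libraries with 4 group means. Alternatives were edgeR 4.0.16, DESeq2 1.42.0, TMM scaling, pseudocounts of 0.5 and 8, no filter, size factors over all 12 libraries, the replicate number as a block and each library left out. Scripts were tested on simulated data. Positions and exon lengths are from GENCODE M21. Named genes are the members, the 3 called genes of smallest p per list and comparison with Cd36 and Cd47, the 5 nearest profiles and the flanking coding genes. Some genes the rule names are given by counts alone or are not reported here. The members and lists were chosen with earlier results of these data known, and the motifs after the promoters were seen. Other markers summed, in CPM over the 12 libraries, to 894 to 1363 (smooth muscle and mural) and 597 to 939 (endothelial).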

Additional observations from a re-analysis of the deposited data

Results flagged for a closer look

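The difference between the diets in the response to TAC passed the test for 4 of the genes named above, each with a smaller rise on the BCAA-free diet. Thbs4 differed by -2.14 ± 0.300 in log2 units (limma adjusted p = 0.0109) and was called in 20 of 20 alternatives. Wisp1, a matricellular gene, differed by -2.30 ± 0.371 (limma adjusted p = 0.0204), called in 15 of 20. On the control diet it was at 125 ± 1.66 normalized reads (SD, n = 3) in sham and 1020 ± 443 in TAC hearts, and on the BCAA-free diet at 136 ± 28.7 and 206 ± 25.7. Col9a2 differed by -2.69 ± 0.494 (limma adjusted p = 0.0275), called in 11 of 20, and was at 39.5 ± 6.01, 590 ± 272, 23.6 ± 6.91 and 49.99 ± 13.6 in the same order. Col12a1 differed by -1.85 ± 0.354 (limma adjusted p = 0.0355), called in 9 of 20, and was at 243 ± 32.2, 2387 ± 872, 159 ± 16.2 and 422 ± 108. Adjusted p-values over the alternatives reached 0.0738 for Wisp1, 0.0988 for Col9a2 and 0.107 for Col12a1.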

How the results depend on the processing

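Of 380 alternative values of the 25 member changes, 357 kept direction and side of the threshold, 12 lost and 10 gained a call, and 1 changed sign: Thbs2 between the diets in TAC hearts, 0.20 without control diet TAC 2. With TAC on the control diet 4 members were called throughout. With TAC on the BCAA-free diet the number called was 2, and 1 with the replicate block, 1 with size factors over all 12 libraries, 3 by DESeq2 and 1 to 3 with 1 library left out. Between the diets in sham hearts it was 0, with 1 by DESeq2 and 0 to 1 with 1 library left out. Between the diets in TAC hearts it was 4, and 3 to 4 with 1 library left out, where Thbs2 (-0.42) was called without control diet TAC 3. For the difference in TAC response it was 1, with 2 by DESeq2 and 1 to 4 with 1 library left out. The replicate block ended the calls of Thbs4 with TAC on the BCAA-free diet (limma adjusted p = 0.163) and of Thbs1 between the diets in TAC hearts (0.0637). Same-numbered libraries did not deviate together over genes averaging 10 or more (correlations of -0.17 to 0.0417). These are deviations from means of 3 libraries over many genes, so they cannot decide whether the numbers pair the libraries. Calls under the replicate block are given as a check. All genes called ran from 1354 to 4678 for TAC on the control diet (2710 as reported), 302 to 1893 for TAC on the BCAA-free diet (1360), 50 to 1530 between diets in sham hearts (633), 1195 to 6025 in TAC hearts (3025) and 16 to 1755 for the difference in response (118), the last highest without control diet TAC 3. The cause was not tested. Scaling by library totals moved 1 member level by more than its SD, Thbs2 in BCAA-free sham hearts, from 2774 to 2680. The lowest member count was 363 reads, for Comp in BCAA-free sham 3, and no test here splits counting error from other spread.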
